A study of Mus musculus with 24 samples.

Results

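Training for object location memory, which relies on a mouse learning where objects stand in an arena, was compared with rest in the home cage in the dorsal hippocampus of wild-type mice. The comparison uses 12 of the 24 sequenced animals: 6 C57BL/6J mice killed 30 minutes after training and 6 C57BL/6J mice killed directly from the home cage. Of the 19661 genes in the deposited table, the 12380 with a mean of at least 1 RPKM (reads scaled by transcript length and library depth) over these 12 animals were tested, and 7281 lay below that level. The other 12 animals, 6 per condition, carry 1 targeted allele of Actl6b (Baf53b+/-, strain B6J.129S6-Actl6b<tm1Grc>) and share no sample with the wild-type groups. They served here as a second set of animals given the same 2 conditions. Their libraries also entered the model behind the calls, which took 1 shared spread per gene from all 24 animals. The standard errors and p-values of that model therefore do not rest on the wild-type animals alone.

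The labels used here state neither age nor sex. Home cage animals are the single control, so learning, handling and exploration cannot be told apart. Both dorsal hippocampi of a mouse gave 1 library of bulk tissue, in which fewer cells of a type and less RNA per cell cannot be told apart.

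Library depth, recovered from steps in the low RPKM values, ranged from 28.4 to 39.8 M reads, and averaged 34.6 ± 1.5 M for home cage animals and 33.9 ± 3.7 M for trained animals (SD, n = 6). For a transcript of 2 kb, 1 RPKM stands for 56.9 to 79.5 reads. Actl6b, which encodes the neuronal BAF subunit BAF53b, stood at 49.8, 51.1 and 53 RPKM in the home cage (lowest, median and highest animal) and at 46.4, 51.1 and 54.4 after training, and the groups overlapped, against means of 30.0 and 28.3 RPKM in the heterozygotes. Markers of the labelled tissue were present, with all 9 listed markers of CA1, 13 of dentate granule cells and the 7 matched markers of CA3 above the level for testing. So were 7 of 8 matched markers of thalamus, 6 of 7 of striatum and 6 of 7 of cortex. Passing this level therefore does not tell how clean the dissection was. The choroid plexus transcript Ttr exceeded 1000 RPKM in home cage animal 2425 and trained animal 2412, against 18.1 to 288 RPKM in the other 10. Animals with the Y-linked transcript Ddx3y above 1 RPKM numbered 3 in each wild-type group.

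Neurons that fire strongly admit calcium, and kinases then switch on a set of genes within minutes, with no need for new protein. The first of these immediate-early genes encode transcription factors such as Fos and Egr1. Others encode phosphatases and kinase inhibitors that end the signal, proteins that shorten the life of mRNA, and effectors that act at synapses. Many of these genes are short, have little RNA at rest, and carry sites for CREB and serum response factor in their promoters. In the hippocampus they are used as markers of cells that were active during a recent experience.

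After training, 119 genes rose and 15 fell by limma at a Benjamini-Hochberg adjusted p under 0.05. These are 0.961% and 0.121% of the genes tested. Most rises were small. The fold of the means exceeded 2 in 14 genes and 1.5 in 27, and it was under 1.25 in 66. Differences are given as log2(RPKM + 0.5), where those of genes at low levels come out too small. The median difference (trained minus home cage) was 0.26 for the genes that rose, -0.27 for those that fell and 0.01 for all genes. The trained group lay wholly above the home cage group in 134 tested genes (1.08%) and wholly below it in 20 (0.162%). Among the called genes this held for 83 of the 119 rises and 9 of the 15 falls. In 3 of the rises, Egr2, Apold1 and E030010A14Rik, the home cage mean was under 1 RPKM, so these passed the level for testing through their trained animals. Fitted to the 12 wild-type libraries alone, the model called 66 rises and 9 falls, of which 63 and 8 were among those above.

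**Figure D1:**
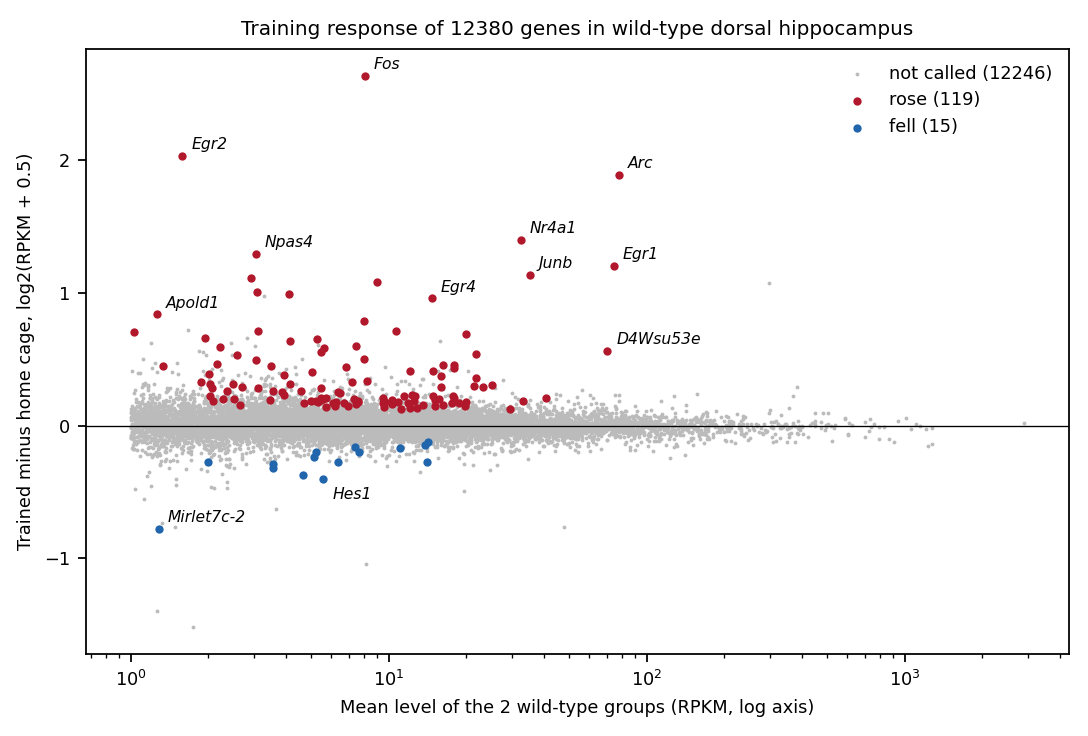
Difference between trained and home cage wild-type animals (vertical axis, log2(RPKM + 0.5)) against the mean level of the 2 groups (horizontal log axis, RPKM) for the 12380 tested genes, 1 point per gene. The 119 genes that rose reach from small differences to 2.63 for Fos (median 0.26). The 15 that fell reach from -0.13 for Bckdk to -0.78 for Mirlet7c-2 (median -0.27).

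Transcription factors of the early response held the largest rises. Of 29 tested members of that list, 16 rose (55.2%) and 0 fell, with a median difference of 0.40. In 15 of them the groups did not overlap. The best-known members span a range of levels: Egr1 is abundant at rest, while Fos, Egr2 and Npas4 are low. Fos, which pairs with a Jun protein to form AP-1, stood at 1.19, 1.90 and 2.74 RPKM in the home cage and at 11, 12.8 and 23.4 RPKM after training. Egr2, a zinc finger factor, went from 0.176, 0.311 and 0.490 RPKM to 2.22, 2.57 and 4.55. Npas4, a factor induced by calcium, went from 0.878, 1.46 and 2.23 RPKM to 2.66, 3.71 and 8.48. In all 3 genes the lowest trained animal lay above the highest home cage animal.

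Egr4 belongs to the same zinc finger family as Egr1 and Egr2. Its level was 8.83, 9.78 and 10.7 RPKM in the home cage and 17.0, 18.8 and 25.9 after training, a difference of 0.96 ± 0.07 (SE, adjusted p = 3.54e-09). The groups were far apart, with trained animal 2436 highest. Ier2, a short nuclear early gene, stood at 2.26, 2.50 and 3.11 RPKM before and 4.96, 5.37 and 7.49 after (1.0 ± 0.09, adjusted p = 1.15e-07). Fosb, a Fos relative, had 1.36, 1.55 and 2.17 RPKM in the home cage and 3.22, 3.89 and 5.85 after training, with no overlap. Junb, a Jun protein of AP-1, rose 2.25-fold and the nuclear receptor Nr4a1 2.69-fold, both from levels of over 10 RPKM at rest. Nr4a2, its relative, had 13.6, 15 and 16.1 RPKM in the home cage and 19.7, 22.7 and 38.0 after training. The wide trained range of Nr4a2 came with an adjusted p of 0.0184, and the call ended without home cage animal 2404 (adjusted p = 0.0539) or 2430 (0.0501).

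Further factors rose by less. Klf2, Klf4, Csrnp1 and Fosl2, with Nab2 of the next list, are named after their values were seen. Klf2, a Krüppel-like zinc finger factor, had 2.60, 3.11 and 3.82 RPKM in the home cage and 4.65, 5.02 and 6.36 after training (0.64 ± 0.09, adjusted p = 6.61e-05). Its relative Klf4 differed by 0.46 ± 0.10 (adjusted p = 0.0115) and the nuclear factor Csrnp1 by 0.53 ± 0.07 (adjusted p = 9.40e-05). Fosl2, a Fos relative, went from 5.19, 5.78 and 6.10 RPKM to 7.02, 8.31 and 15 RPKM. Nfil3, a repressor tied to the circadian clock, overlapped between the groups by a narrow margin, with 5.14 RPKM in the highest home cage animal and 5.12 in the lowest trained animal. Bhlhe40, another clock repressor, stood at 35.6, 38.5 and 39.7 RPKM in the home cage and 42.5, 43.8 and 45.3 after training (0.21 ± 0.05, adjusted p = 0.0249). Leaving out any of 5 animals ended the Bhlhe40 call, with an adjusted p of up to 0.0721. Fosl1, Atf3 and Maff, also on the list, lay below the level for testing.

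The list of feedback inhibitors and kinases of early signalling had 7 rises among 32 tested members and 0 falls, with a median difference of 0.17. Dusp6, a phosphatase that inactivates the kinase ERK in the cytoplasm, stood at 15.5, 17.7 and 19.7 RPKM in the home cage and 24.2, 25.1 and 28.4 after training (0.54 ± 0.06, adjusted p = 4e-06). The groups did not overlap. The nuclear phosphatase Dusp5 went from 5.64, 7.96 and 10.1 RPKM to 11.2, 13.0 and 16.9, and Dusp1 rose 2.24-fold. Trib1, a pseudokinase that binds kinases and a ubiquitin ligase, had 1.86, 2.29 and 2.57 RPKM before and 3.42, 4.01 and 4.69 after (0.71 ± 0.07, adjusted p = 1.91e-07). Sik1, a kinase that holds the CREB coactivators in the cytoplasm, rose 2.28-fold from 1.88 ± 0.323 to 4.28 ± 0.661 RPKM (SD, n = 6).

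Spry4, an inhibitor of receptor tyrosine kinase signalling, had 2.62, 2.82 and 3.32 RPKM in the home cage and 3.84, 3.92 and 4.95 after training (0.45 ± 0.06, adjusted p = 8.04e-05). Nab2, a corepressor that binds Egr1, had 12.8, 14.3 and 16.4 RPKM before and 16.2, 17.7 and 18.8 after (0.29 ± 0.05, adjusted p = 0.00277), and the groups overlapped by a single pair of animals. All 7 feedback genes passed with the wild-type libraries alone, whichever animal was left out, and without the 6 libraries of the series that are rich in Ttr.

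Of 15 tested genes of growth arrest, survival and mRNA decay, 6 rose and 0 fell, with differences from -0.14 to 0.58 (median 0.23). Gadd45b, a stress protein with a role in DNA demethylation, went from 3.81, 4.38 and 4.81 RPKM to 6.01, 6.26 and 8.31 (0.56 ± 0.07, adjusted p = 5.74e-05). Btg2, Tob1 and Tob2 belong to 1 family, which recruits the enzymes that remove poly(A) tails from mRNA. Of the 4 tested genes whose symbols begin with Tob or Btg, these 3 rose. Tob2 had 5.80, 6.62 and 7.03 RPKM in the home cage and 7.58, 9.79 and 10.6 after training, and Tob1, the more abundant, 19.7, 20.4 and 23.1 against 22.7, 26.0 and 27.6. Of these 3 genes, Tob1 overlapped between the groups. Mcl1, a protein of the Bcl-2 family that blocks cell death, rose 1.24-fold from 19.2 ± 1.02 to 23.7 ± 1.67 RPKM (SD, n = 6; adjusted p = 6.97e-05). Cdkn1a, the inhibitor of cyclin-dependent kinases known as p21, differed by 0.50 ± 0.10 (adjusted p = 0.0109), with overlapping groups.

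Effector genes that act outside the nucleus were a mixed group. Of 26 tested members, 4 rose and 0 fell, and the median difference of 0.10 was nearer to that of all genes. Arc, which acts in the internalization of glutamate receptors, stood at 26.5, 29.8 and 45.3 RPKM in the home cage and 82.7, 120 and 172 after training. Arl4d, a small GTPase of the ARF family, went from 4.8, 5.95 and 6.33 RPKM to 8.38, 10.2 and 14.4 (0.79 ± 0.11, adjusted p = 6.61e-05). Cyr61, a secreted matrix protein, had 1.18, 1.37 and 1.62 RPKM before and 2.04, 2.44 and 3.07 after (0.66 ± 0.09, adjusted p = 6.01e-05). In these 3 genes the groups did not overlap. Gpr3, a receptor that raises cAMP without a known ligand, passed at an adjusted p of 0.0496 with overlapping groups, and leaving out any of 10 of the 12 animals ended the call (adjusted p up to 0.114). Bdnf was the only gene picked as a best-known early gene that did not pass limma. Its mean was 10.09 RPKM in the home cage and 10.81 RPKM after training (0.09 ± 0.07, adjusted p = 0.693), with overlapping groups.

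Less studied activity-induced genes gave 8 rises among 32 tested members, 0 falls and a median difference of 0.12. Midn, which encodes the nuclear protein midnolin, was the most significant, at 11.6, 12.8 and 13.5 RPKM in the home cage and 15.8, 17.3 and 17.8 after training (0.41 ± 0.05, adjusted p = 5.08e-06). Tiparp, an enzyme that adds ADP-ribose to proteins, had 3.35, 3.95 and 4.6 RPKM before and 5.92, 6.32 and 7.82 after (0.66 ± 0.08, adjusted p = 8.01e-06). In both genes the trained animals stood clear of the home cage animals. Sertad1, a transcriptional coregulator, differed by 0.38 ± 0.06 (adjusted p = 0.000283) and Fam46a by 0.45 ± 0.07 (adjusted p = 0.00116). Coq10b, needed for the use of coenzyme Q in mitochondria, had 5.29, 5.85 and 6.51 RPKM in the home cage and 6.64, 7.07 and 7.42 after training (0.25 ± 0.05, adjusted p = 0.00915). Kdm6b, an enzyme that removes repressive methyl groups from histone H3, had 6.70, 7.07 and 7.46 RPKM before and 7.53, 7.91 and 8.87 after (0.18 ± 0.04, adjusted p = 0.0309). Its call ended on leaving out any of 7 animals, at an adjusted p of up to 0.0848. The other 2 rises of the list, Pvr and Irs2, added here after their values were seen, had adjusted p of 0.0384 and 0.0463 and passed in 3 and 2 of the 12 fits that left out an animal.

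**Figure D2:**
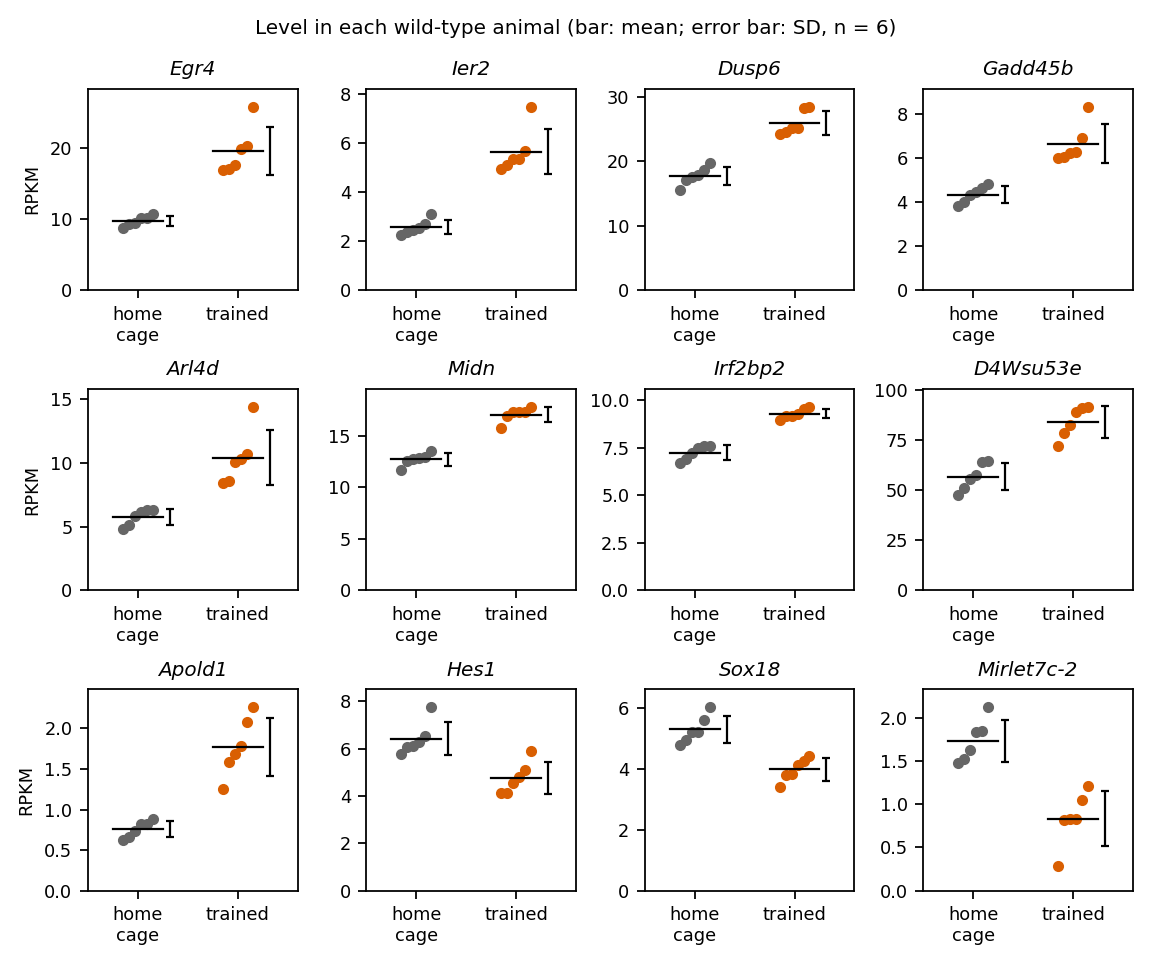
Level of 12 genes in each of the 12 wild-type animals (vertical axes, RPKM, starting at 0), with home cage animals in grey, trained animals in orange, a bar at the mean and an error bar for the SD (n = 6). The groups are apart in every panel except that of Hes1.

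The promoters of the called genes were read for short sequence motifs. The RefSeq table of GRCm38.p6 held the 250 bases before the start of 91 of the 119 genes that rose, 6 of the 15 that fell and 8877 of the 12380 tested. The core of the cAMP response element, TGACG on either strand, lay in 15 of the 19 genes with a window that rose over 1.5-fold (78.9%), in 35 of 72 that rose by less (48.6%) and in 31.1% of all tested genes. Among genes with 1 window only, the shares were 76.5%, 44.4% and 28.5%. The whole palindrome TGACGTCA, which contains TGACG on both strands, lay in 9 of the 91 rises (9.89%) and in 3.12% of all genes. Windows of the larger rises were also richer in G and C, with a median of 65.8% against 60.4% and 20.5 against 16 CG dinucleotides, and the part of base composition in these shares was not tested.

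CArG, the core of the serum response element, lay in 2 of the 91 rises (2.2%), which were 2 of the 19 larger ones (10.5%) and 0 of the 72 smaller ones, and in 1.41% of all genes. TGACTCA, the AP-1 site, lay in 1 rise (1.1%), a larger one (5.26%), and in 3.55% of all genes. GCGTGGGCG, the Egr site, lay in 1 rise (1.1%), again a larger one (5.26%), and in 1.23% of all genes. TATAAA on either strand lay in 8 of the 91 rises (8.79%), which were 4 of the 19 larger ones (21.1%) and 4 of the 72 smaller ones (5.56%), and in 7.69% of all genes. Of the 6 falls with a window, 4 held TGACG and 0 held the palindrome. A match is a description of letters in this window, not evidence of binding. Among the larger rises, Egr1, Arc, Ier2, Cyr61, Sik1, Trib1, Fam46a and E030010A14Rik had no window, so no share covers them. Bases outside the window were not read. A low share therefore does not show that an element is rare near these genes.

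The stretches of these windows printed here show 4 genes with large rises, followed by all 9 rises that hold the whole palindrome. TGACG lay in 50 rises, and most of these are not printed. Each is written 5′ to 3′ in the direction of the gene on GRCm38.p6, with matches to TGACG (or CGTCA on the other strand), CArG and TATAAA in capitals. Egr2 has 5 windows and Slc25a25 has 3. For these genes the window with the most matches to TGACG and CArG was chosen, and distances refer to its start.
Fos, chr12:85473740-85473889, plus strand: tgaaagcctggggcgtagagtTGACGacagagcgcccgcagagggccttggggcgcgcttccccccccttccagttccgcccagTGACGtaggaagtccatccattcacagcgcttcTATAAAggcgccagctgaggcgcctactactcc
Nr4a1, chr15:101266596-101266845, plus strand: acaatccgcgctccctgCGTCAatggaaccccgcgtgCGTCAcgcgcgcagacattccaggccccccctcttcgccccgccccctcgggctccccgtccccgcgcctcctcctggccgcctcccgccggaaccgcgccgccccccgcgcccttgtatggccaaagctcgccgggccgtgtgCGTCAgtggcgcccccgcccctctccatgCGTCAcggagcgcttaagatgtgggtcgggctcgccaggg
Egr2, chr10:67537739-67537838, plus strand: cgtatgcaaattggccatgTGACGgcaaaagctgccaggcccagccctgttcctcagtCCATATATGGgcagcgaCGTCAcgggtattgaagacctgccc
Apold1, chr6:134981901-134982000, plus strand: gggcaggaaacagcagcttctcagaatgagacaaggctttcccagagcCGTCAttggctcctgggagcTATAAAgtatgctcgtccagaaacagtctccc
Dusp1, chr17:26508573-26508672, minus strand: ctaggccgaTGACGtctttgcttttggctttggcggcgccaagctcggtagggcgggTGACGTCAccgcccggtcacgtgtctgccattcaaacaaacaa
Btg2, chr1:134079256-134079355, minus strand: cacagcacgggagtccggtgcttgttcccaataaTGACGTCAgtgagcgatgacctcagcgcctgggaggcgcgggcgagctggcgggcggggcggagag
Arl4d, chr11:101665441-101665540, plus strand: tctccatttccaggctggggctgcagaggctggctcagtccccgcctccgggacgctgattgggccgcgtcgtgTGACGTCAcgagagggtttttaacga
Slc25a25, chr2:32424167-32424266, minus strand: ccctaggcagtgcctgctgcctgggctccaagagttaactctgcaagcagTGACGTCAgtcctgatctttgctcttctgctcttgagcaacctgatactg
Phf8, chrX:151520572-151520671, plus strand: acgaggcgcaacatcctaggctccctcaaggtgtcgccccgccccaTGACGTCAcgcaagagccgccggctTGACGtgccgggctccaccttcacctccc
Lrrc8a, chr2:30237619-30237718, plus strand: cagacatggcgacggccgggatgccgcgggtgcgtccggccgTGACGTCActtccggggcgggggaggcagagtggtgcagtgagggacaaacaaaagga
Crkl, chr16:17451865-17451964, plus strand: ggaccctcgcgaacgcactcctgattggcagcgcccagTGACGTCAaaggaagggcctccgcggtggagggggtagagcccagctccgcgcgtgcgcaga
Tra2a, chr6:49264053-49264152, minus strand: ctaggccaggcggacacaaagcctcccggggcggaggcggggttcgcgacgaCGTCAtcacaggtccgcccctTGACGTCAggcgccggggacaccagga
B4galt3, chr1:171270228-171270327, plus strand: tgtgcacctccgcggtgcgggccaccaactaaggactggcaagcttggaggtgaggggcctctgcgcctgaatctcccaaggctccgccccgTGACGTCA

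In Fos the TGACG nearest the start begins 66 bases before it and the TATAAA 33 bases before it. Nr4a1 holds 4 copies of TGACG, at 233, 213, 69 and 40 bases. The palindrome begins between 8 bases (B4galt3) and 166 bases (Btg2) before the start. Of its 9 holders, Dusp1, Btg2 and Arl4d rose over 1.5-fold. The other 6 rose by 1.11-fold (B4galt3) to 1.17-fold (Tra2a and Slc25a25), and in Crkl, B4galt3, Lrrc8a, Tra2a and Phf8 the trained and home cage ranges overlapped. Phf8, Crkl, Lrrc8a and B4galt3 are named for their sequence, after their values had been seen. Leaving out 1 animal ended the calls of Crkl in 4 fits (adjusted p up to 0.0568), B4galt3 in 6 (up to 0.0831), Tra2a in 7 (up to 0.115) and Lrrc8a in 10 (up to 0.112).

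Genes on none of the function lists made up 69 of the 119 rises. Their median fold was 1.16 and the largest, of Apold1, 2.33. Irf2bp2, a nuclear corepressor first found as a partner of the interferon regulatory factor Irf2, had the smallest p among them (chromosome 8, 129112196 to 129117336, mm9). It stood at 6.68, 7.36 and 7.62 RPKM in the home cage and at 8.99, 9.24 and 9.65 after training (0.34 ± 0.04, adjusted p = 2.72e-06). The rise was only 1.28-fold, but both groups were narrow and did not overlap. D4Wsu53e, known by its mapping name (chromosome 4, 134479540 to 134483285, mm9), stood at 47.8, 56.6 and 64.6 RPKM before and 71.8, 85.8 and 91.4 after (0.56 ± 0.07, adjusted p = 1.48e-05). In absolute terms its gain of 27.2 RPKM was close to that of Junb (27.1 RPKM) and Nr4a1 (29.9 RPKM). Apold1, a protein of endothelial cells that is induced early (chromosome 6, 134932019 to 134936854, mm9), went from 0.631, 0.780 and 0.885 RPKM to 1.26, 1.73 and 2.26 (0.84 ± 0.10, adjusted p = 9.63e-06).

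Others on no list rose by less. Stk40, a pseudokinase, had 5.91, 6.11 and 7.06 RPKM in the home cage and 7.48, 8.06 and 8.57 after training (0.33 ± 0.04, adjusted p = 5.52e-05). Spty2d1, a histone chaperone, differed by 0.29 ± 0.05 (adjusted p = 0.00207) and Pnrc1, a coactivator of nuclear receptors, by 0.21 ± 0.04 (adjusted p = 0.00221). Pou3f2, a neural POU-domain factor also known as Brn2, had 2.04, 2.41 and 2.66 RPKM before and 2.78, 2.96 and 3.31 after (0.29 ± 0.05, adjusted p = 0.00305). Slc25a25, a mitochondrial carrier of ATP and phosphate, had 12.9, 13.7 and 14.5 RPKM in the home cage and 15.3, 16 and 17.2 after training (0.22 ± 0.03, adjusted p = 0.000214). In these 5 genes the groups did not overlap, and each call held in every fit that left out an animal and with the wild-type libraries alone.

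Phf15, a protein with a PHD finger, differed by 0.23 ± 0.04 (adjusted p = 0.00344) and the zinc finger genes Zfp180 and Zfp295 by 0.16 ± 0.03 and 0.23 ± 0.04. Among 46 tested genes with symbols in Phf, Ing, Brd or Kdm, 6 rose (Phf15, Phf8, Phf13, Ing1, Kdm6b and Brd3) and 0 fell, with a median difference of 0.04. This family and the members Phf13, Ing1 and Brd3 were picked after the values had been seen. Brd3 was the smallest of these rises, at 10.4, 10.6 and 11.1 RPKM before and 11.3, 11.6 and 12.2 after. Without 1 animal the call ended in 1 fit for Phf13 (adjusted p = 0.0584), 2 for Ing1 (up to 0.0601) and 7 for Brd3 (up to 0.0971). Of 301 tested Zfp genes, 5 rose and 1, Zfp810, fell.

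Max, the partner of Myc, shows how small a change could pass. It stood at 27.6, 28.2 and 29.5 RPKM in the home cage and 30.3, 30.7 and 31.9 after training, a 1.09-fold rise with groups apart (0.13 ± 0.02, adjusted p = 0.00696). The deubiquitinase gene Usp36, the kinase gene Stk35 and the splicing gene Cwc25 rose by 1.14-fold to 1.15-fold in the same way, each with no overlap. Ccdc117 rose 1.27-fold. Eya3, a phosphatase and coactivator, rose 1.14-fold with overlapping groups. With the wild-type libraries alone, the adjusted p was 0.0556 for Max and Cwc25, 0.0893 for Usp36 and 0.0809 for Eya3. Of the 69 genes on no list, 23 passed in that fit and 30 in every fit that left out an animal. The uncharacterised gene E030010A14Rik rose 2.08-fold from 0.670 ± 0.218 to 1.39 ± 0.238 RPKM (SD, n = 6), and lost its call when home cage animal 2430 was left out (adjusted p = 0.0513).

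Genes just short of the threshold were of the same size. Dcun1d2 (0.11 ± 0.03, adjusted p = 0.0509), Taf5 (0.23 ± 0.06, adjusted p = 0.0522) and Fbxl14 (0.14 ± 0.04, adjusted p = 0.0528) had trained animals all above the home cage animals. Snx18 differed by 0.15 ± 0.04 with overlap (adjusted p = 0.0528), and Gm1568 differed by -0.15 ± 0.04 with all trained animals below (adjusted p = 0.0519).

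Handling and exploration of an arena also raise corticosterone, which acts through the glucocorticoid receptor. Of 26 tested glucocorticoid-responsive genes, 6 rose and 0 fell, with a median difference of 0.15; Dusp1 and Cdkn1a among them are also early genes. Per1, a clock gene, stood at 14.2, 15 and 16.2 RPKM in the home cage and 19.1, 21.1 and 22.5 after training (0.45 ± 0.05, adjusted p = 2.04e-06). Nfkbia, the inhibitor of NF-kappaB, went from 9.74, 10.3 and 11.5 RPKM to 13.2, 13.8 and 15.2 (0.41 ± 0.06, adjusted p = 0.00015). In both genes the groups were well apart. Ddit4, an inhibitor of mTOR, had 17.8, 19 and 19.7 RPKM before and 20.6, 24.2 and 30.1 after (0.36 ± 0.07, adjusted p = 0.0104). Tsc22d3, which encodes the glucocorticoid-induced leucine zipper, had 11.8, 12.9 and 17.8 RPKM in the home cage and 15.4, 19.3 and 22.6 after training (0.46 ± 0.09, adjusted p = 0.00579). Home cage animal 2418 was alone in reaching the trained range of Tsc22d3. With the wild-type libraries alone its adjusted p was 0.0695.

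Among 26 tested cytosolic heat shock chaperones 2 rose and 0 fell, where 0.961% and 0.121% of all tested genes did. A positive difference was found in 25 (median 0.09), against 56.9% of all tested genes. An unadjusted limma p under 0.05 was reached by 9, all higher after training, against 11.1% of all tested genes. Whether this list leans higher than other gene sets was not tested. Dnajb1, a cochaperone of Hsp70, had 14.3, 15.1 and 15.9 RPKM in the home cage and 18.4, 20.4 and 23.8 after training (0.44 ± 0.05, adjusted p = 8.01e-06). Dnajb4 had a very narrow home cage range of 16.2, 16.5 and 16.8 RPKM, and 17.5, 18.6 and 20.2 after training (0.17 ± 0.03, adjusted p = 0.0015). None of 21 tested genes of the endoplasmic reticulum and unfolded protein response passed limma (3 at an unadjusted p under 0.05, all higher after training, where 11.1% of all tested genes reached that p), and Xbp1, its leading member by p, differed by 0.16 ± 0.06 (adjusted p = 0.266). Among 22 clock genes, Per1, Nfil3 and Bhlhe40 rose, and the median of the list was 0.02. Of the 38 splicing factors and Clk kinases, Clk1 and Tra2a rose. Clk1, a kinase of splicing factors, had 11.5, 14 and 16.9 RPKM before and 16.4, 18.1 and 19.8 after (adjusted p = 0.0179), and its call ended without any of 4 animals (adjusted p up to 0.0608).

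**Figure D3:**
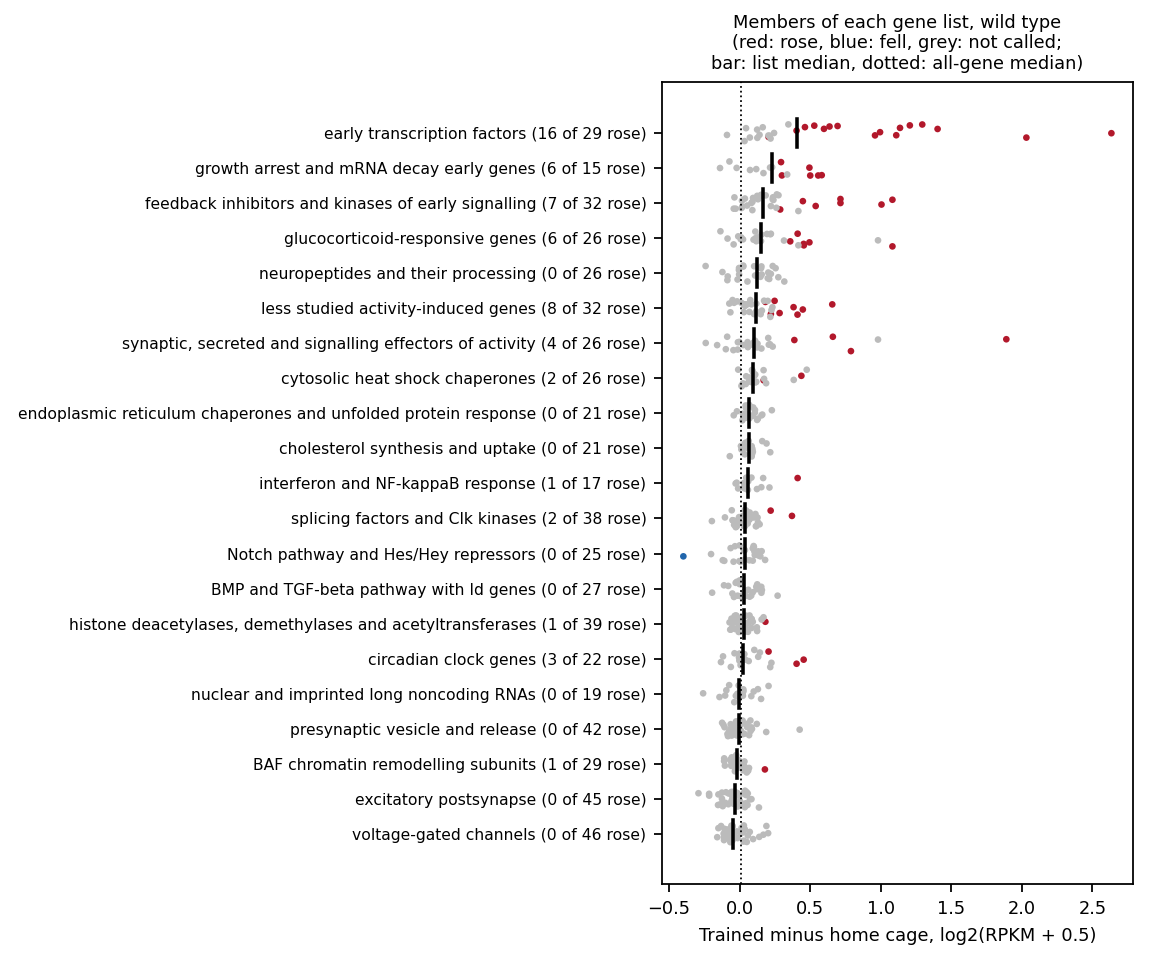
Difference between trained and home cage wild-type animals (horizontal axis, log2(RPKM + 0.5)) for each tested member of the function lists with at least 5 tested genes. Red points rose, blue points fell and grey points were not called; a black bar marks the list median and the dotted line the median of all genes (0.01). Early transcription factors stand furthest to the right, and the medians of synapse and channel lists lie at or below the dotted line.

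Of the 15 falls, Mirlet7c-2 exceeded 1.5-fold and 9 were under 1.25-fold, and Hes1 was the only one on a function list. Hes1, a repressor downstream of Notch, stood at 5.76, 6.20 and 7.74 RPKM in the home cage and 4.12, 4.67 and 5.89 after training (difference -0.40 ± 0.08, adjusted p = 0.0115). Its groups overlapped by 1 trained animal. The other 24 tested genes of the Notch list did not pass, and the list median was 0.04. Sox18, a factor of endothelial cells, stood at 4.77, 5.22 and 6.02 RPKM before and 3.41, 4.0 and 4.44 after (-0.37 ± 0.09, adjusted p = 0.0402). The groups of Sox18 did not overlap, yet its call ended in 10 of the 12 fits that left out an animal (adjusted p up to 0.121). Of 15 tested endothelial markers, the glucose transporter gene Slc2a1 rose (0.19 ± 0.05, adjusted p = 0.0491) and Sox18 fell, the median was -0.003, and the summed level was 116 to 141 RPKM in the home cage and 122 to 137 RPKM after training. Slc2a1 lost its call in 9 of those fits (adjusted p up to 0.128).

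Mirlet7c-2, the gene of a let-7 microRNA precursor, had the largest fall (chromosome 15, 85537033 to 85537127, mm9) on the fewest reads. Its mature products, read from the RefSeq table, are shown with the seed (bases 2 to 8) in capitals. The seed of the 5p product is the one shared by the let-7 family.
mmu-let-7c-5p: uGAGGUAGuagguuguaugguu
mmu-let-7c-2-3p: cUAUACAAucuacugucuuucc

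The deposited values concern the precursor locus and not these mature RNAs. Mirlet7c-2 stood at 1.48, 1.73 and 2.12 RPKM in the home cage and 0.280, 0.827 and 1.21 RPKM after training (-0.78 ± 0.15, adjusted p = 0.00915), with no overlap. Over its 94 bases these values correspond to 4.83 to 6.87 reads in a home cage library and 0.91 to 3.23 reads in a trained one. With a trained mean under 1 RPKM, it passed the level for testing through its home cage animals, and it is described here as the largest fall. These reads are estimates from the span and the recovered depth, and they are not whole numbers, so the true counts are unknown. Summed over 6 animals and rounded, the estimates are 16 against 34, a ratio of 0.48 per read of depth. A 95% binomial interval on these rounded sums, 0.247 to 0.893, is approximate for that reason. It covers counting error only and is no test. Of 29 tested genes whose symbols begin with Mir, 0 rose, this 1 fell and 9 had a positive difference (median -0.15).

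An entry whose name had turned into a date in the deposited table, on chromosome 2 at 60047993 to 60086442 (mm9), had 14.3, 15.4 and 16.8 RPKM in the home cage and 11.4, 12.6 and 13.9 after training (-0.27 ± 0.05, adjusted p = 0.00328). The uncharacterised gene 2310061J03Rik had 3.62, 4.03 and 4.35 RPKM before and 2.83, 3.12 and 3.52 after (-0.32 ± 0.07, adjusted p = 0.0136). Zfp810, a zinc finger gene, had 5.37, 5.47 and 6.09 RPKM in the home cage and 4.68, 4.82 and 5.12 after training (-0.20 ± 0.04, adjusted p = 0.00386). In these 3 the groups did not overlap. Lcmt2, an enzyme of transfer RNA modification, differed by -0.27 ± 0.06 (adjusted p = 0.0144) and BC002230 by -0.24 ± 0.05 (adjusted p = 0.0104). Zfand5, a ubiquitin-binding zinc finger gene, differed by -0.15 ± 0.03 (adjusted p = 0.0139). The groups of BC002230 and Zfand5 overlapped. The calls of Lcmt2, BC002230 and Zfand5 held in every fit that left out an animal. With limma on the wild-type libraries alone their adjusted p was 0.104, 0.0803 and 0.11.

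Vangl2, a protein of planar cell polarity, had 3.50, 4.11 and 4.33 RPKM in the home cage and 2.91, 3.03 and 3.80 after training (-0.29 ± 0.06, adjusted p = 0.021). Its call ended without any of 5 animals (adjusted p up to 0.067). The other 5 falls, Tmem203, Fam136a, Wdr85, B930041F14Rik and the kinase gene Bckdk, differed by -0.27 to -0.13, and their calls held in 2 (Wdr85) to 6 (Bckdk and Tmem203) of the 12 fits. Cirbp, a cold-inducible RNA-binding gene, had 24.5, 29.1 and 32.8 RPKM before and 19.7, 23.8 and 26.5 after and missed the threshold (-0.30 ± 0.08, adjusted p = 0.0643). Its relative Rbm3 differed by -0.04 ± 0.09.

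No gene passed limma among 45 of the excitatory postsynapse (median -0.04; 5 at an unadjusted p under 0.05, all lower after training), 42 of presynaptic vesicles and release (median -0.01; 3, all lower) or 46 voltage-gated channels (median -0.05; 2, 1 in each direction). The exact Wilcoxon rank-sum test, whose smallest p with 6 animals a group is 0.00216, called 0 of the 12380 genes after adjustment, so it does not bear on these lists. Over all tested genes, 11.1% had a limma p under 0.05 before adjustment (925 genes higher and 446 lower). The postsynaptic list reached the same share, but all 5 of its genes were lower. Differences were negative in 30 of its 45 genes, 23 of 42 presynaptic genes and 31 of 46 channel genes. A positive difference was found in 56.9% of all tested genes. Whether these lists lean lower than other gene sets was not tested. Nlgn1, a postsynaptic adhesion gene and the leading member by p, had 18.2, 18.7 and 19.5 RPKM in the home cage and 15.3, 17.0 and 19.2 after training (adjusted p = 0.226). Unc13a, a vesicle priming gene, differed by -0.11 ± 0.04 and the calcium channel gene Cacna1a by -0.11 ± 0.05. Neuropeptide genes had a median of 0.12 with 0 of 26 called by limma (3 at an unadjusted p under 0.05, of which 1 was higher and 2 lower after training). Vgf, a secreted precursor, had the smallest p, at 46.6, 55.5 and 65.1 RPKM before and 60.3, 65.7 and 70.02 after (adjusted p = 0.295). Cholesterol genes were positive in 20 of 21, where 56.9% of all tested genes were, with 0 called by limma (3 at an unadjusted p under 0.05).

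Of 29 tested BAF subunits, Smarce1 alone rose, from 6.31, 7.26 and 7.60 RPKM to 7.60, 8.05 and 8.85 (0.18 ± 0.04, adjusted p = 0.0206), and the list median was -0.02. The Smarce1 call ended without any of 4 animals (adjusted p up to 0.0636). Sox11, a factor of immature neurons, rose from 2.02, 2.17 and 2.28 RPKM to 2.43, 2.75 and 3.34 (0.31 ± 0.07, adjusted p = 0.0139), as the 1 call among 6 tested markers of immature neurons and dividing cells (median 0.05). Mki67, Top2a and Eomes, which mark dividing cells and progenitors, lay below the level for testing.

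Markers of cell types and regions were read beside these results. The 7 CA3 markers were all lower after training (median -0.19), with summed levels of 409 to 519 RPKM in the home cage and 358 to 484 RPKM after training. Of 13 dentate markers 12 were lower (median -0.14; 161 to 251 against 145 to 246 RPKM). None of the CA3, dentate, CA1, interneuron, astrocyte, microglia, oligodendrocyte or choroid plexus markers passed limma. An unadjusted p under 0.05 was reached by 2 of 7 CA3 markers, both lower after training, and 2 of 12 astrocyte markers, both higher. Over all tested genes 11.1% reached that p (925 higher and 446 lower), and 56.9% had a positive difference. Medians were 0.03 for CA1, 0.11 for interneurons and 0.02 for astrocytes and for oligodendrocytes. Choroid plexus markers summed to 29.1, 41.4 and 1641 RPKM in the home cage (lowest, median and highest animal) and 31.4, 126 and 1410 RPKM after training. Adding their mean log2 value as a covariate, 126 genes rose and 16 fell, of which 113 and 15 were among those above. Without the 6 Ttr-rich libraries of the series, 2 of them wild type, the counts were 59 and 6. The part of tissue composition in the other results was not tested.

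The genes that rose most were short. The genomic span from the first to the last base of the gene had a median of 4.32 kb in the 27 genes that rose over 1.5-fold, and 21 of them (77.8%) spanned less than 10 kb. In the 66 that rose under 1.25-fold the median was 20.03 kb, with 25.8% under 10 kb, and over all tested genes it was 22.9 kb, with 26.7% under 10 kb. Falls had a median of 4.38 kb. The median home cage level was 3.16 RPKM for rises over 1.5-fold, 8.86 RPKM for rises under 1.25-fold and 9.23 RPKM for all genes. In RPKM, the 119 rises together gained 484, and Arc (90.7), Egr1 (59.6), Nr4a1 (29.9) and D4Wsu53e (27.2) made up 42.9% of it. The part of span and level in the calls was not tested.

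Shifts were also read animal by animal. The genes were called on these same animals, which favours genes with a shift in every trained animal and a small spread. The direction and evenness of the shifts are therefore partly set by the choice of genes. For the 41 rises on an early gene list, the median shift from the home cage mean was 0.48 to 0.58 in 5 trained animals and 0.78 in animal 2436, which was the highest trained animal in 25 of the 41 genes and in 19.4% of all genes. For the 78 other rises, the shift was 0.19 to 0.22 in all 6 trained animals, 2436 included (0.22). The 15 falls shifted by -0.26 to -0.21. Among home cage animals, 2418 stood highest for the early rises with a shift of 0.12, against -0.05 to 0.03 in the others. Without trained animal 2436, 89 genes rose and 11 fell, of which 88 and 11 were among those above.

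**Figure D4:**
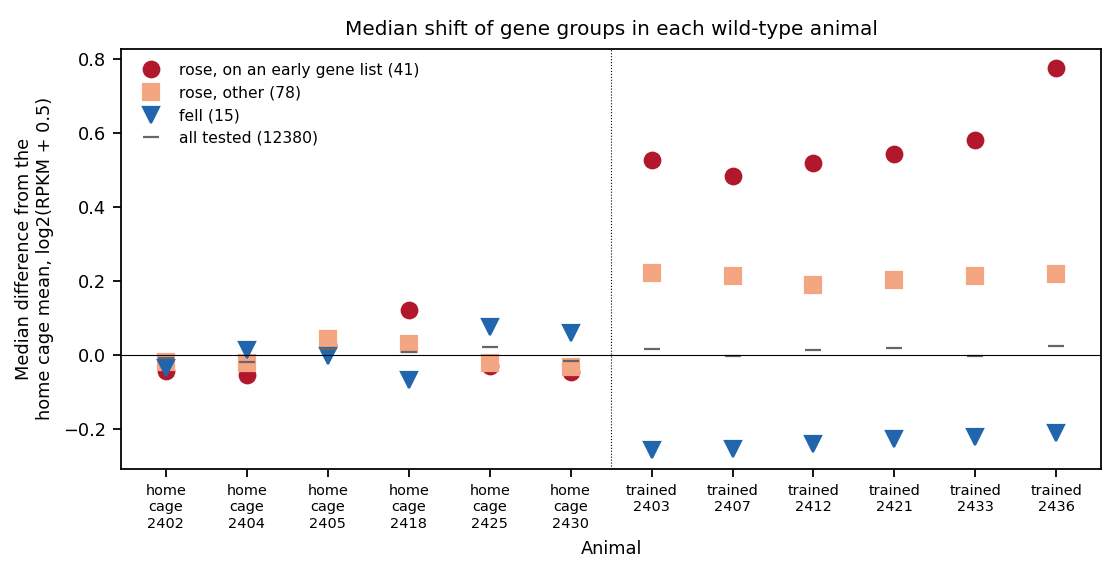
Median difference of 4 gene groups from the home cage mean (vertical axis, log2(RPKM + 0.5)) in each of the 12 wild-type animals (horizontal axis). Early rises (circles) stand at 0.48 to 0.58 in 5 trained animals and 0.78 in 2436. Other rises (squares) stand at 0.19 to 0.22 and falls (triangles) at -0.26 to -0.21 in trained animals. The genes were called on these same animals, which favours even shifts.

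The Baf53b+/- animals gave the same contrast in other mice. Both contrasts came from 1 fit with a shared residual variance, so a gene called in wild type also tends to have a small standard error in heterozygotes. The 119 wild-type rises all had a positive difference there, and 66 of them also rose by limma in heterozygotes, where 0.905% of all genes rose and 0.145% fell. These 66 are 55.5% of the wild-type rises and 58.9% of the 112 rises in heterozygotes. Over all tested genes 60.2% had the same sign in both genotypes. The median difference of the wild-type rises was 0.26 in wild type and 0.22 in heterozygotes. For the 66 rises under 1.25-fold it was 0.19 and 0.14, with all of the same sign and 24 called, and for the 69 on no list 0.19 and 0.15, with all of the same sign and 27 called. These genes were chosen for passing in wild type, which enlarges their wild-type differences, so the medians do not compare the genotypes.

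In heterozygotes 14 of the 15 falls had a negative difference and 4 were called, with a median of -0.10 against -0.27 in wild type. Hes1 fell there too (-0.44 ± 0.08, adjusted p = 0.00381), as did the entry with the date name (-0.25, adjusted p = 0.00888), Zfp810 (-0.17, adjusted p = 0.0185) and Lcmt2 (-0.26, adjusted p = 0.0194). Mirlet7c-2 differed by -0.05 in heterozygotes and 2310061J03Rik by 0.0003. The test of the difference between genotypes gave these 2 the smallest unadjusted p of the called genes, 0.00273 and 0.0026. The called genes were chosen for their wild-type difference, which also enters this test. Small interaction p-values among called genes are therefore partly set by that choice. No gene passed in that interaction test after adjustment (309 at an unadjusted p under 0.05; smallest adjusted p = 0.984). Irf2bp2 differed by 0.34 in wild type and 0.18 in heterozygotes (unadjusted interaction p of limma = 0.00635). Strain background goes with genotype in these samples, so the effects of strain and genotype cannot be told apart.

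**Figure D5:**
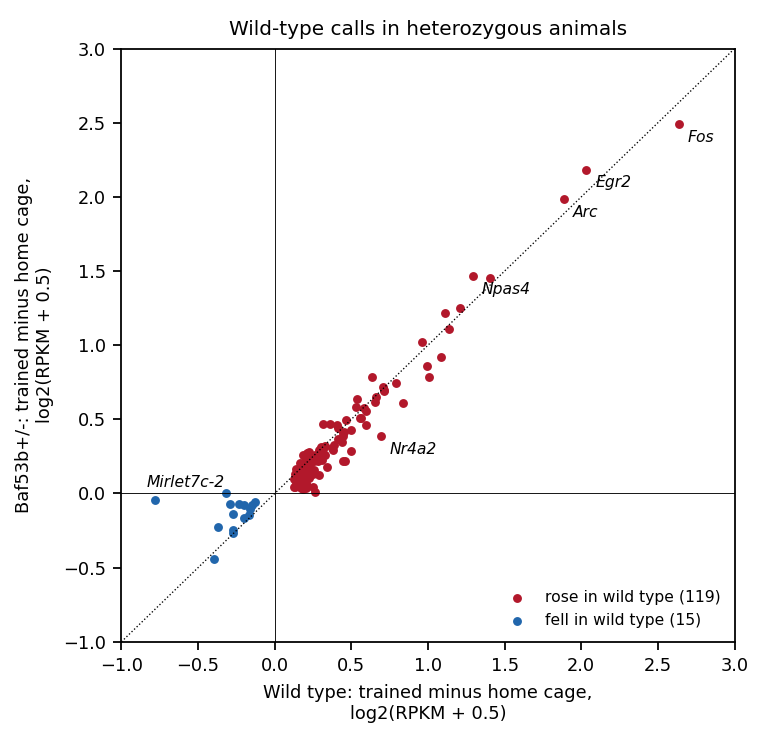
Difference between trained and home cage animals in Baf53b+/- mice (vertical axis) against wild type (horizontal axis), both on the log2(RPKM + 0.5) scale, for the 134 genes called in wild type, with equality as a dotted line. All 119 red points (rose) lie above 0 on the vertical axis, and 14 of the 15 blue points (fell) lie below it.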

How the data were processed

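RNA from both dorsal hippocampi of each mouse was sequenced, and the numbers in the labels were taken as animals. RPKM values were deposited by the authors as 1 table, with mm9 positions and a column for each sample; CASAVA 1.8.2, Bowtie 0.12.8 and mm9 are named in the submitters' processing notes. The annotation is unknown here, as is the read total behind the RPKM. Per the labels' protocols the kit does not keep strand, so overlapping genes cannot be told apart. The pool of each animal is unknown here, and batch was therefore not a term of any fit. Gene names that had turned into dates were kept under their positions.

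Depth was read from whole-read steps in the RPKM of 1003 single-exon genes, where 49.5% to 55.8% came out whole to within 0.05 reads, against at most 8.2% at other totals. Since the values are RPKM, no count test was used. Genes whose mean over the 12 wild-type samples reached 1 RPKM were tested on log2(RPKM + 0.5) with limma 3.58.1 in R 4.3.3. All 24 samples entered a model of 4 groups, with an intensity trend and robust settings and Benjamini-Hochberg adjustment over 12380 genes. Differences are trained minus home cage. In simulated data for this comparison, over 12380 genes, 62% of 50 genes changed by 0.2 were recovered, 92% of those changed by 0.4 and 100% of those changed by 0.8 or 1.5, and 4.32% of calls were unchanged genes. The simulation drew independent normal noise for each gene, with no effect shared by the genes of a library. Recovery and false calls in the real libraries may therefore differ. The p-values measure the spread between these samples.

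The members and gene lists were chosen with earlier results of these data known. Genes named are Actl6b, the best-known early genes, the 20 largest rises, all falls, the 20 genes on no list with the smallest p, up to 6 called members of each list or else up to 2 leading ones, the 5 genes nearest the threshold, called genes with overlapping spans, the 5 most abundant called genes, the 2 with the smallest interaction p and defining cell type markers. Alternatives changed the samples, pseudocount, filter, scaling, limma settings, covariates and test. Libraries with over 1000 RPKM of Ttr were counted as rich in it. The fits without them were added after seeing the data.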

Additional observations from a re-analysis of the deposited data

Results flagged for a closer look

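Single animals stood apart from the other 5 of their group in 22 cases among the 212 groups looked at (106 genes, 2 groups each), by Dixon's test. Chance flags about 1 in 20 groups, and values of 1 animal are not independent across genes.

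Trained animal 2436 stood apart on the high side in 9 genes, most of them early genes. Fos had 23.4 RPKM against 11 to 13.9 in the other 5 trained animals. Egr1 had 123 RPKM against 95.1 to 105, Egr2 4.55 RPKM against 2.22 to 2.86 and Nr4a1 64.5 RPKM against 42.1 to 46.2. Junb had 66.6 RPKM against 42.8 to 47.4, Ier2 7.49 RPKM against 4.96 to 5.69 and Klf2 6.36 RPKM against 4.65 to 5.14. Btg2 had 9.92 RPKM against 5.81 to 6.801 and Zfp180 18.6 RPKM against 16.5 to 17.1. All 9 genes passed limma without this animal, with an adjusted p of at most 0.0105.

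Trained animal 2421 was highest in Fosl2 (15 RPKM against 7.02 to 8.90), Spry4 (4.95 RPKM against 3.84 to 4.17) and Xbp1 (34.5 RPKM against 27.4 to 29.7) and lowest in Mirlet7c-2 (0.280 RPKM against 0.812 to 1.21). Among the other trained animals, Eya3 was low in 2433 (6.07 RPKM against 6.63 to 6.91) and Slc2a1 low in 2407 (32.4 RPKM against 35.3 to 36.3).

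In the home cage, animal 2418 was lowest in BC002230 (4.70 RPKM against 5.59 to 5.99) and Btg2 (3.51 RPKM against 4.35 to 4.89) and highest in Tsc22d3 (17.8 RPKM against 11.8 to 13.7). Klf4 was low in 2404 (1.33 RPKM against 1.71 to 1.91), Zfp295 high in 2405 (4.07 RPKM against 3.40 to 3.598) and Gm1568 high in 2430 (5.20 RPKM against 4.41 to 4.64). The choroid plexus transcript Ttr was high in 2425 (1555 RPKM against 18.1 to 30.6).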

How the results depend on the processing

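Of 119 rises and 15 falls, wild-type samples alone gave 66 and 9, a level of at least 5 RPKM 79 rises, and quantile normalization 75 rises (78.9% of its calls, against 88.8%). Leaving out the 6 Ttr-rich libraries gave 59 and 6 (56 and 4 of the original ones), and leaving out the 2 wild-type ones 79 and 10 (74 and 5); these alternatives were chosen after seeing the data. The exact Wilcoxon rank-sum test called 0 and 0 (its smallest p is 0.00216), with 716 and 336 at an unadjusted p under 0.05. Leaving out each animal gave 83 to 138 rises (82 to 106 of the original ones) and 9 to 22 falls; the 9 came without home cage animal 2430. The cause was not tested. Over 26 settings, the 106 genes checked gave 2725 values, of which 2333 kept their direction and side of the threshold, 370 no longer passed, 22 newly passed and 0 reversed. Median scaling and quantile normalization moved the median of all genes by -0.01 and -0.02. Under median scaling and pseudocounts of 0.1 and 1, the settings run on lists, the 37 list medians moved by less than the spread between animals. No paired analysis was possible because the labels give the groups no shared replicate numbers. At the lowest depth, 1 RPKM of a 2 kb gene is 56.9 reads, and short genes rest on fewer.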
